A study of Mus musculus with 48 samples.

Results

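Notch signalling was followed here through 10 genes: the ligands Jag1, Jag2, Dll1 and Dll4, the receptors Notch1, Notch2, Notch3 and Notch4, and the targets Hes1 and Hey1. They were chosen by name, are 10 of the 19505 genes measured, and each has 1 probe set on the array. A ligand on one cell pulls on a receptor on its neighbour, the receptor is cut by ADAM proteases and then by gamma-secretase, and the freed intracellular part joins the DNA-binding protein RBPJ to switch on genes of the HES and HEY families. In the liver, sinusoidal endothelial cells carry DLL4, and Notch signalling from that endothelium through RBPJ is known to take part when monocytes become Kupffer cells. Jag1 in the mesenchyme around the portal vein is better known for its part in bile duct formation.

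The cells were macrophages of BALB/c male mice. Kupffer cells, the macrophages resident in the liver, had been sorted from liver by F4/80, and monocytes from the blood of those mice by CD115. Both were held in MCSF (macrophage colony-stimulating factor) for 1 day and then for 1 or 3 days with hepatocyte growth factor (HGF), with Ito cells, which are the stellate cells of the liver, with CD146 cells, which are its sinusoidal endothelial cells, or in MCSF as the control, so that the controls had 2 or 4 days of MCSF in all. Each of the 16 groups (2 cell types, 4 conditions, 2 times) held 3 arrays described as biological replicates, 48 in all, and the number of arrays limits the precision. From the labels it is not known if Ito and CD146 cells shared the well with the macrophages when RNA was taken, or if an addition replaced MCSF. In a bulk sample, fewer cells of a type and less RNA per cell cannot be told apart.

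Promoters are shown for Jag1, Notch1 and Notch2, because these are the 3 genes whose signal moved far above or across the background. The sequences are the 250 bases before the start site, 5′ to 3′ on the strand of the gene, from RefSeq (GRCm38.p6, the C57BL/6J reference, while the mice were BALB/c). Jag1 lies at chr2:137116521-137116770 on the minus strand, Notch1 at chr2:26503823-26504072 on the minus strand and Notch2 at chr3:98013288-98013537 on the plus strand. Capitals mark GC boxes (GGGCGG on either strand) and, in Notch2, the 1 stretch that fits the NF-kappa-B consensus.
Jag1: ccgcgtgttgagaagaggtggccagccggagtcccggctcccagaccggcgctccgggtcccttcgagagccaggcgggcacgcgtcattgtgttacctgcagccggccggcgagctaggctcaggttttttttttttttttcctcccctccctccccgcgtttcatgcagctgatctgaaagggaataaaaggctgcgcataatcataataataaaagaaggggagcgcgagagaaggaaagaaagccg
Notch1: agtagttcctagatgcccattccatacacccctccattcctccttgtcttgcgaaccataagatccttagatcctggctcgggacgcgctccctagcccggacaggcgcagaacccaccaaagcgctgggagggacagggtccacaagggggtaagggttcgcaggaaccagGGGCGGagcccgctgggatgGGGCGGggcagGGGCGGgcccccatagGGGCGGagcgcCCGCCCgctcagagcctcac
Notch2: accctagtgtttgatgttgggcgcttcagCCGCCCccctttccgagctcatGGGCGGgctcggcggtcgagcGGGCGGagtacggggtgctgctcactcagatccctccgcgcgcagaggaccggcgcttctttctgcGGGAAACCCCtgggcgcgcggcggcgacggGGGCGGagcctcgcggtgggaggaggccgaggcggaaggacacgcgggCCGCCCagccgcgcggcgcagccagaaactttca
Notch1 and Notch2 have 5 GC boxes each and Jag1 has 0, against a share of 32.7% of all 32851 promoter windows with at least 1. The windows also differ in base composition. G and C make up 66.0% of that of Notch1, 72.0% of Notch2 and 57.2% of Jag1, against a median of 52.4% over all windows. The NF-kappa-B consensus, present in 3.9% of all windows, was found in 1 window among the members, that of Notch2, 112 bases before the start site. The RBPJ core TGGGAA, searched on both strands, is in none of the windows of the 8 members that had one, against 21.6% of all windows. The AP-1 motif TGANTCA, in 6.75% of all windows, was found once, in 1 of the 2 windows of Dll1. These are matches of letters in a short window, not measured binding, and no window was given for Hes1 or Hey1.

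Values are log2 signals, so that 1 unit is a 2-fold difference, and each array carries 5222 negative control probe sets that serve as its background. Their mean lay between 5.07 and 6.15 on the 48 arrays and their 95th percentile between 8.44 and 10.28. Only Jag1 and Notch2 stood above that percentile on most arrays: Jag1 on 44 of 48 and Notch2 on 47 of 48. Notch1 was above it on 2 arrays, both of monocytic macrophages with Ito cells at 1 day, but above the mean of the negative controls on 33. Hey1 was above that mean on 4 arrays, and Notch3, Notch4, Jag2, Dll1, Dll4 and Hes1 on 0 of 48. The 3 that could be followed are thus 1 ligand and 2 receptors, while both targets stayed at background. A second background, the mean of 23 GC-binned probe sets, lay lower (3.50 to 4.47). Against it Jag2 was higher on 37 arrays, Hey1 on 36, Notch4 on 16, Dll4 on 11, Notch3 on 4, Hes1 on 1 and Dll1 on 0.

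**Figure D1:**
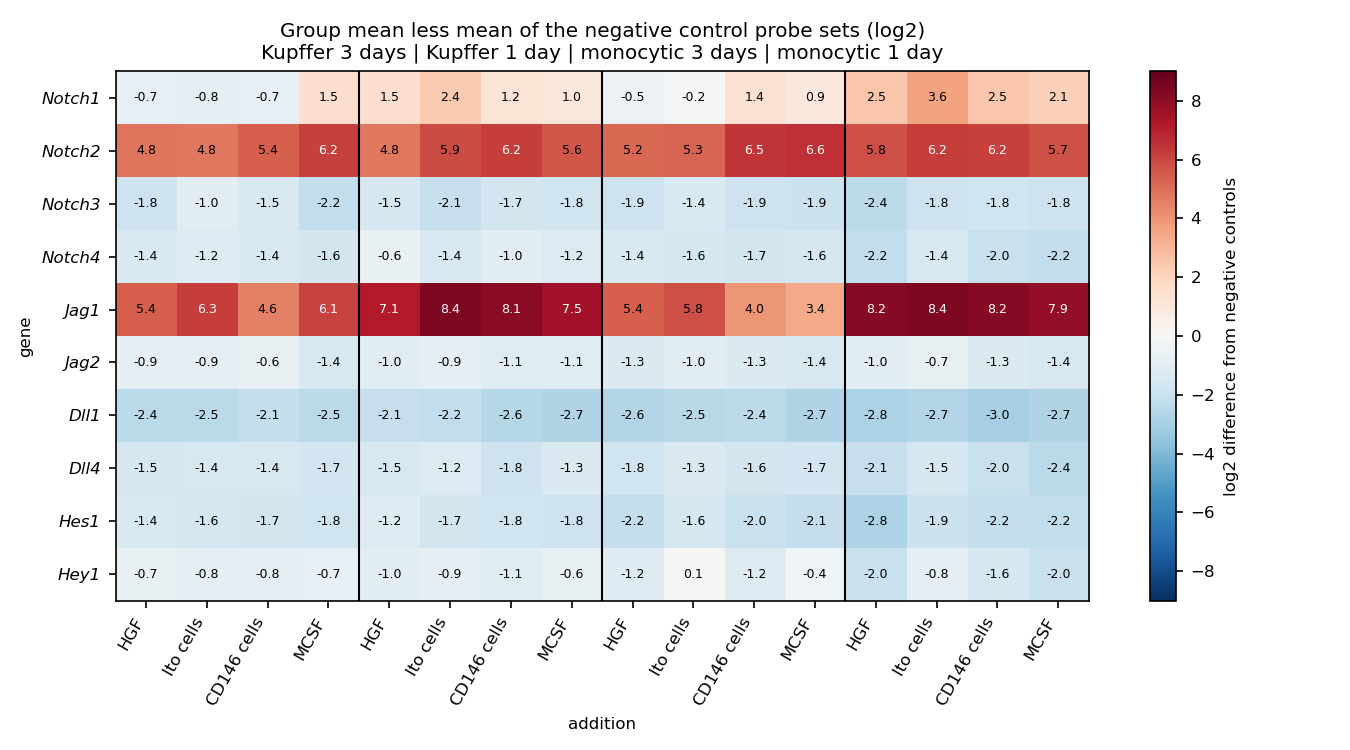
Group mean of each of the 10 genes less the mean of the negative control probe sets in that group (log2; each cell is the mean of 3 arrays). Rows are genes and columns are the 4 conditions of each cell type and time. Jag1 (3.44 to 8.42) and Notch2 (4.77 to 6.57) are above 0 in all 16 groups, Notch1 changes sign between groups, and apart from Hey1 in monocytic macrophages with Ito cells at 3 days (0.10) the other genes are below 0.

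The sorted cells were checked against markers. Of 9 macrophage genes, 7 to 9 stood above the 95th percentile of the negative controls on each of the 48 arrays. Of 8 Kupffer cell genes, 0 to 4 did in the F4/80 groups and 0 to 4 in the CD115 groups, and the Kupffer cell lectin Clec4f was below the mean of the negative controls in all 16 groups, so that the Kupffer label rests on the sort. Endothelial genes (15 measured) averaged 6.85 to 9.11 in the Kupffer MCSF control of 1 day, 4.06 to 4.18 in that of 3 days and 3.45 to 4.49 in the monocytic groups. There were 3 arrays that stood apart from their groups: replicate 1 of the Kupffer MCSF control at 1 day, with a mean of 4.08 over 7 B cell genes where its group reached 10.41, replicate 2 of Kupffer cells with HGF at 1 day, and replicate 3 of the monocytic MCSF control at 3 days. The last had a mean of 12.59 over 7 cell cycle genes, against 7.42 and 7.66 in the other two arrays of that control. The B cell value of 10.41 is itself unusual: outside the Kupffer MCSF control at 1 day, no array had a B cell mean above 7.42.

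Over the 12 comparisons of an addition with its MCSF control, 22 of 120 gene-by-comparison pairs passed (limma, adjusted p under 0.05), 3 higher and 19 lower, while 17.4% of all genes passed (5.96% higher and 11.4% lower). Of these calls 16 were at 3 days and 6 at 1 day, where monocytic macrophages with HGF held 4, all of genes at background. At 3 days Jag1, Notch1 and Notch2 gave 14 calls in 18 pairs, 2 higher and 12 lower, and at 1 day 1 in 18, with 2 at an unadjusted p under 0.05. These 3 genes were singled out by their signal on these same arrays. Their counts are thus a description and no test against the shares of all genes. The background at 3 days was 18.1% of all genes and 32.6% of genes with a group above the mean of the negative controls. At 1 day these shares were 16.7% and 16.1%. Jag1 and Notch2 were above the 95th percentile of the negative controls on most arrays. Of genes with a group above that percentile, 53.4% to 55.2% passed in the Kupffer comparisons of 3 days. In the monocytic ones 28.1% passed with HGF, 28.4% with Ito cells and 5.39% with CD146 cells.

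Jag1 encodes Jagged1, a transmembrane ligand of the receptors, and is the ligand that could be measured. With HGF at 3 days it was lower than MCSF in Kupffer cells and higher in monocytic macrophages, and it fell with culture time in all 8 conditions. In Kupffer cells at 3 days it was 11.54, 10.04 and 10.86 with HGF, 11.96, 11.46 and 11.98 with Ito cells and 9.90, 10.27 and 10.07 with CD146 cells, against 11.80, 11.78 and 11.99 in the MCSF control. All arrays with HGF or CD146 cells lie below all control arrays, while those with Ito cells overlap them. The log2 difference from the control was -1.78 ± 0.37 with CD146 cells (SE, n = 3 each, adjusted p = 0.000158, 3.43-fold lower) and -1.04 ± 0.37 with HGF (adjusted p = 0.0277). The HGF call is lost when any 1 of 5 arrays is left out (adjusted p of 0.0504 to 0.261): each control array in turn, or replicate 2 or 3 with HGF. It is smallest, -0.66, without replicate 2 with HGF. With Ito cells the difference was -0.06 ± 0.37 (adjusted p = 0.941).

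In monocytic macrophages at 3 days Jag1 was 11.23, 11.08 and 10.57 with HGF, 10.95, 11.59 and 11.40 with Ito cells and 9.71, 9.52 and 10.77 with CD146 cells, against 9.02, 9.09 and 9.91 in the MCSF control. Every array with HGF or Ito cells lies above every control array, and the arrays with CD146 cells overlap the control. Jag1 rose with Ito cells by 1.98 ± 0.37 (adjusted p = 0.000152, 3.94-fold) and with HGF by 1.62 ± 0.37 (adjusted p = 0.00174, 3.08-fold), and kept both calls under each of 16 alternatives. With CD146 cells the difference was 0.66 ± 0.37 (adjusted p = 0.447). At 1 day Jag1 passed in 0 of 6 comparisons with MCSF (0 at an unadjusted p under 0.05), with differences between -0.65 and 0.63. With array weights the Kupffer differences were larger and passed, at 0.94 with Ito cells (adjusted p = 0.000412, against 0.53 with equal weights) and at 1.06 with CD146 cells (adjusted p = 0.000147, against 0.63).

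The control itself differed between the cell types at 3 days. Jag1 averaged 11.86 ± 0.12 in Kupffer cells and 9.34 ± 0.49 in monocytic macrophages in MCSF (SD, n = 3 each), a difference of 2.52 ± 0.37 (SE, adjusted p = 1.33e-06, 5.74-fold). With an addition the 2 cell types lay closer: the Kupffer minus monocytic difference at 3 days was -0.15 with HGF, 0.49 with Ito cells and 0.08 with CD146 cells, and none passed (adjusted p = 0.856, 0.598 and 0.919). The comparisons of responses use these same controls. The response of Kupffer cells minus that of monocytic macrophages was -2.67 ± 0.52 for HGF (adjusted p = 0.000188), -2.03 ± 0.52 for Ito cells (adjusted p = 0.00646) and -2.44 ± 0.52 for CD146 cells (adjusted p = 0.000366). Among all genes 15.2%, 8.75% and 18.2% passed in these 3 comparisons. Over the 6 comparisons of responses 8 of 60 pairs of the 10 genes passed, 4 higher and 4 lower, beside 11.6% of all genes (7.45% higher and 4.2% lower). The 3 differences of Jag1 also passed without the arrays that stood apart, at -2.95, -2.32 and -2.72.

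With time Jag1 fell in every condition. At 1 day in Kupffer cells it was 12.86, 11.36 and 12.98 with HGF, 13.40, 13.55 and 13.77 with Ito cells and 13.71, 13.74 and 13.58 with CD146 cells, against 13.74, 12.57 and 12.82 in MCSF. In monocytic macrophages at 1 day it was 12.95, 13.12 and 14.32 with HGF, 13.82, 13.49 and 13.47 with Ito cells and 14.11, 14.18 and 14.09 with CD146 cells, against 13.64, 14.12 and 13.49 in MCSF. Set against the arrays of 3 days in the same condition, every one of these is higher, except that Kupffer cells with HGF overlap between the times. The median of all genes rose between the times by 0.13 to 0.71, so the fall is given relative to it. It was largest in the monocytic groups in MCSF (-4.55) and with CD146 cells (-4.31), followed by Kupffer cells with CD146 cells (-3.76), and then by monocytic macrophages with HGF (-3.21) and Ito cells (-2.72). Kupffer cells with Ito cells (-2.29), with HGF (-1.89) and in MCSF (-1.34) had the smaller falls. The adjusted p of the unshifted differences ran from 1.51e-12 in monocytic MCSF to 0.0104 in Kupffer MCSF, and the call in Kupffer MCSF is lost without replicate 1 at 1 day (-0.84, adjusted p = 0.111). That in Kupffer cells with HGF is lost when the compared arrays are fitted alone (adjusted p = 0.0788). Over the 8 comparisons of time 38.3% of all genes passed, 30.8% higher and 7.53% lower. Of the 10 Notch genes, 30 of 80 pairs passed, 16 higher and 14 lower, and Jag1 and Notch1 hold 13 of the 14 falls.

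**Figure D2:**
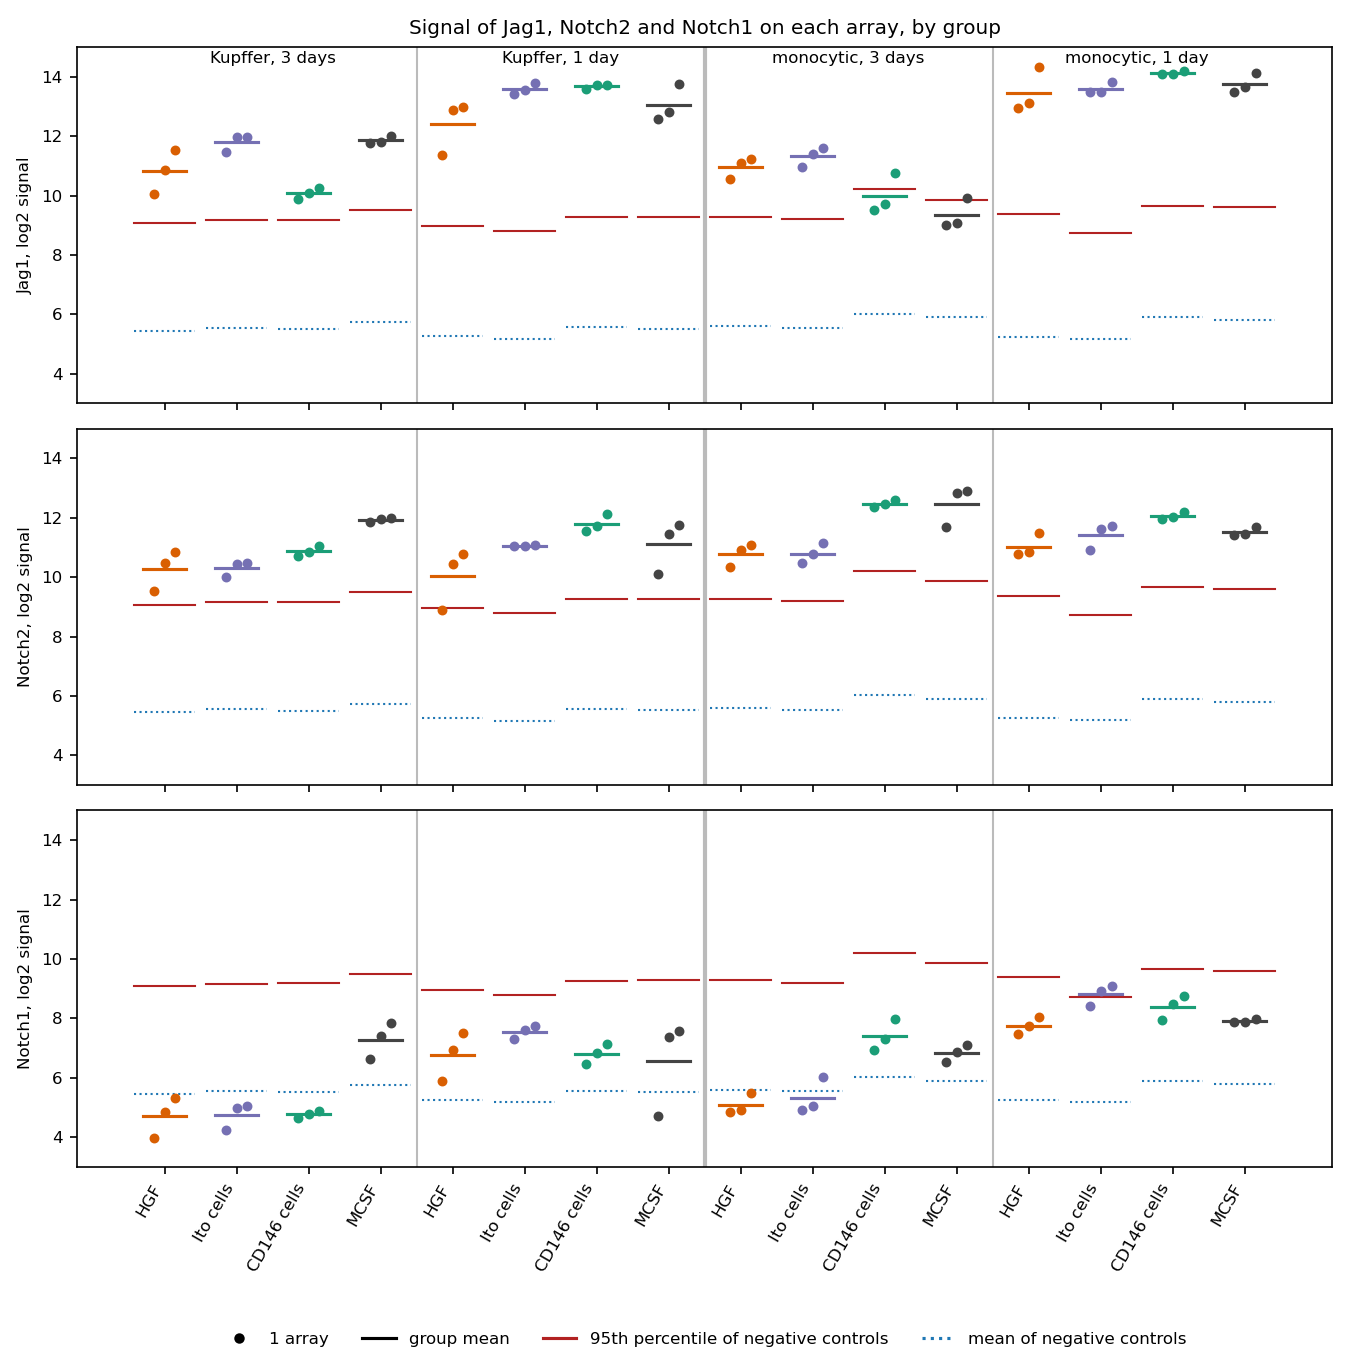
Log2 signal of Jag1, Notch2 and Notch1 (rows) on each of 48 arrays, as points drawn from low to high within a group, with the group mean as a bar. Red lines are the group's 95th percentile of the negative controls and dotted lines their mean. Jag1 drops at 3 days in both cell types and is lowest in monocytic MCSF (9.34), and Notch1 at 3 days lies under the dotted line in 5 groups with an addition.

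Ordered by group mean, Jag1 ran from 14.13 in monocytic macrophages with CD146 cells at 1 day to 9.34 in the monocytic MCSF control at 3 days, a span of 4.79. The 8 groups of 1 day fill the upper 8 places. In 12 of the 15 steps between neighbours the difference was within their spread. Across the 16 group means, the genes most like Jag1 by Pearson correlation, among 3398 bright and variable ones, were Cxcl2 (0.93) and Cxcl3 (0.92), chemokines for neutrophils, and Glrx (0.92), a glutaredoxin. These points share arrays and the change with time, so the values are a description.

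Jag2, Dll1 and Dll4, the other ligands, stayed below the mean of the negative controls on all 48 arrays. Jag2 ranged from 3.75 to 5.15, Dll4 from 2.95 to 4.58 and Dll1 from 2.06 to 4.18. Jag2 passed in 0 of the 38 comparisons, 1 of them at an unadjusted p under 0.05. Dll4, the ligand of sinusoidal endothelium, passed in 0 of 12 comparisons with MCSF (0 at an unadjusted p under 0.05), also where CD146 cells had been added: it averaged 4.10 ± 0.43 in Kupffer cells with CD146 cells at 3 days, against 4.00 ± 0.52 in MCSF, and 4.38 ± 0.18 in monocytic macrophages with CD146 cells, against 4.20 ± 0.24 in MCSF (SD, n = 3 each). A signal at background does not show that the transcript is absent.

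Notch2 encodes the receptor that was bright on nearly every array. At 3 days it was lower with an addition in 5 of 6 comparisons. In Kupffer cells it was 10.84, 9.52 and 10.48 with HGF, 10.48, 10.02 and 10.44 with Ito cells and 10.86, 11.04 and 10.72 with CD146 cells, against 11.85, 11.97 and 11.98 in MCSF. The 9 arrays with an addition all lie below the 3 controls. Notch2 fell by 1.65 ± 0.37 with HGF (adjusted p = 0.000395, 3.15-fold lower) and by 1.62 ± 0.37 with Ito cells (adjusted p = 0.000598), where the median of all genes was 0.11 higher. With CD146 cells it fell by 1.06 ± 0.37 (adjusted p = 0.0259), a call that is lost without control replicate 2 or 3 or without CD146 replicate 1 or 3 (adjusted p of 0.063 to 0.0866).

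In monocytic macrophages at 3 days Notch2 was 10.92, 11.09 and 10.35 with HGF, 10.47, 11.16 and 10.77 with Ito cells and 12.59, 12.36 and 12.48 with CD146 cells, against 12.84, 12.89 and 11.70 in MCSF. Arrays with HGF or Ito cells lie below all others, and control replicate 3, the array with high cell cycle genes, is the lowest of its group. Notch2 fell by 1.69 ± 0.37 with HGF (adjusted p = 0.00118) and by 1.68 ± 0.37 with Ito cells (adjusted p = 0.00114). Without the 3 arrays that stood apart these falls were 2.08 and 2.06, and both calls held under all 16 alternatives. With CD146 cells the difference was 0.00 ± 0.37 (adjusted p = 1). The Kupffer response to CD146 cells minus the monocytic one was -1.06 ± 0.52 and did not pass (adjusted p = 0.178).

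At 1 day Notch2 was 10.78, 8.88 and 10.43 in Kupffer cells with HGF, 11.09, 11.04 and 11.04 with Ito cells and 11.72, 11.55 and 12.15 with CD146 cells, against 10.10, 11.47 and 11.74 in MCSF. In monocytic macrophages it was 11.48, 10.78 and 10.84 with HGF, 11.62, 11.72 and 10.92 with Ito cells and 12.19, 11.97 and 12.04 with CD146 cells, against 11.44, 11.45 and 11.70 in MCSF. The monocytic arrays with CD146 cells all lie above their control (0.54 ± 0.37, adjusted p = 0.731), and all other additions overlap theirs. The Kupffer difference with HGF, -1.07 ± 0.37 (adjusted p = 0.0378, median shift -0.17), is the call of the 18 pairs at 1 day. Without replicate 2 with HGF, the array under the 95th percentile of its negative controls, it was -0.50 (adjusted p = 0.448), and the call was lost in 6 of 16 alternatives. That array also touches the Kupffer minus monocytic differences with HGF at 1 day in Notch2 (-1.0, adjusted p = 0.0206) and Jag1 (-1.06, adjusted p = 0.0144). Without it they were -0.43 and -0.54 and did not pass (adjusted p = 0.348 and 0.238), nor did Notch2 pass without monocytic replicate 1 (-0.78) or Jag1 without monocytic replicate 3 (-0.64). The median of all genes was 0.40 higher in that comparison. With time Notch2 passed once, higher at 3 days in monocytic MCSF (0.95 ± 0.37, adjusted p = 0.0469), where 9 of 16 alternatives lose the call. Lower values at 3 days did not pass: the difference was -0.93 in Kupffer cells with CD146 cells (adjusted p = 0.0573), -0.74 in Kupffer cells with Ito cells (adjusted p = 0.0899) and -0.62 in monocytic macrophages with Ito cells (adjusted p = 0.17). They passed in 6, 5 and 4 of 16 alternatives, among them the fit without the 3 arrays that stood apart (adjusted p = 0.00289, 0.0108 and 0.0347). In Kupffer MCSF the difference was 0.83 (adjusted p = 0.081) and passed in 1. Its 16 group means span 2.44, from 12.48 in monocytic macrophages with CD146 cells at 3 days to 10.03 in Kupffer cells with HGF at 1 day, and 13 of 15 neighbouring steps are within the spread. The most like genes were Atp2c1 (0.90), a Golgi calcium pump, Phf21a (0.89) and Cbl (0.89), a ubiquitin ligase of receptor signalling.

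Notch1, the receptor best known from T cell development, had a signal nearer to background. In Kupffer cells at 3 days it was 5.32, 3.97 and 4.86 with HGF, 5.04, 4.24 and 5.0 with Ito cells and 4.78, 4.87 and 4.66 with CD146 cells, against 6.63, 7.40 and 7.83 in MCSF. The arrays with an addition all lie below the mean of their negative controls and the control arrays above it. The differences were -2.57 ± 0.45 with HGF (adjusted p = 1.40e-05), -2.53 ± 0.45 with Ito cells (adjusted p = 2.18e-05) and -2.52 ± 0.45 with CD146 cells (adjusted p = 2.09e-05). The low side is at background, so the sizes reach only down to it. These calls held under all 16 alternatives except the demand for a group above the 95th percentile of the negative controls, which no Kupffer group met.

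In monocytic macrophages at 3 days Notch1 was 5.48, 4.86 and 4.91 with HGF, 5.05, 6.03 and 4.93 with Ito cells and 6.94, 7.30 and 7.97 with CD146 cells, against 6.87, 6.53 and 7.10 in MCSF. All arrays with HGF or Ito cells lie below all control arrays, while the arrays with CD146 cells overlap them. The differences were -1.75 ± 0.45 with HGF (adjusted p = 0.00644), -1.50 ± 0.45 with Ito cells (adjusted p = 0.021) and 0.57 ± 0.45 with CD146 cells (adjusted p = 0.667). The Ito call is lost without control replicate 1 or 3 or without Ito replicate 1 or 3 (adjusted p of 0.0625 to 0.114), and the demand for a group above the 95th percentile of the negative controls ends both the HGF and the Ito call. Between the cell types the response to CD146 cells differed by -3.08 ± 0.64 (adjusted p = 0.000277): Notch1 was lower in Kupffer cells with CD146 cells, while the difference in monocytic ones did not pass the test. With CD146 cells at 3 days the Kupffer minus monocytic difference was -2.63 ± 0.45 for Notch1 (adjusted p = 1.10e-05) and -1.60 ± 0.37 for Notch2 (adjusted p = 0.000637), with a median shift of -0.12 over all genes. The same demand ends both of these Notch1 calls between the cell types. In these comparisons 19 of 80 pairs of the 10 genes passed, 12 higher and 7 lower, while 19.9% of all genes did (11.6% higher and 8.26% lower), so the share of the members is near that of all genes.

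**Figure D3:**
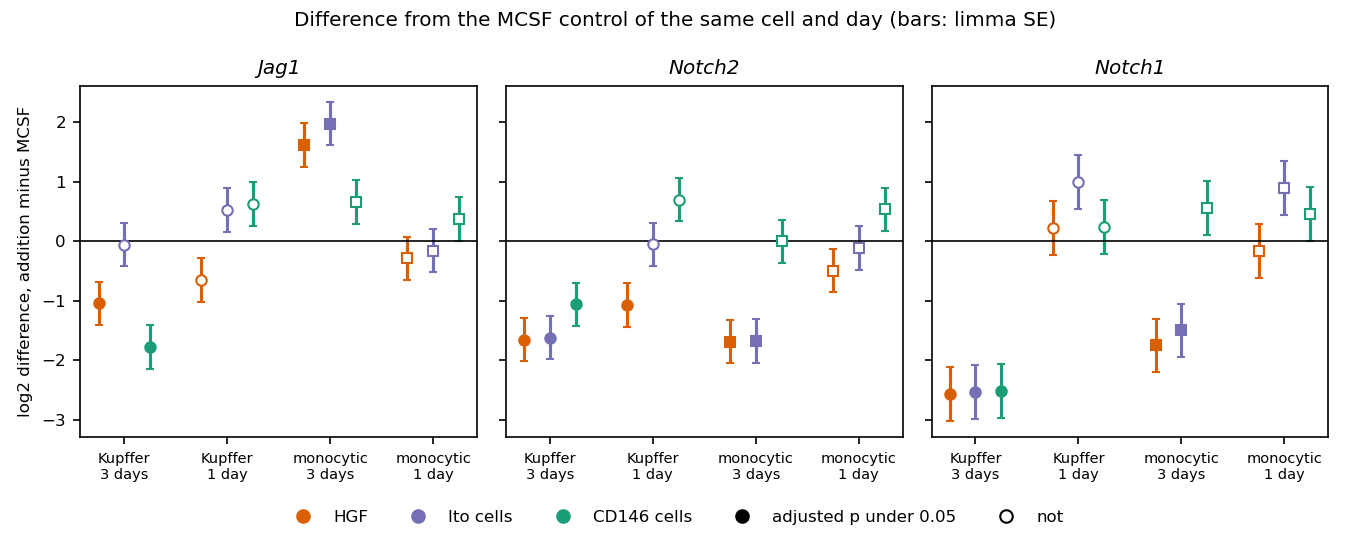
Log2 difference of each addition from the MCSF control of the same cell type and time, with limma SE bars, for Jag1, Notch2 and Notch1. Filled marks passed (adjusted p under 0.05), circles are Kupffer cells and squares are monocytic macrophages. At 3 days Jag1 is below 0 in Kupffer cells with HGF and CD146 cells and above 0 in monocytic macrophages with HGF and Ito cells, while Notch1 and Notch2 are below 0 in 5 of 6 comparisons each.

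At 1 day Notch1 was 6.94, 5.88 and 7.52 in Kupffer cells with HGF, 7.31, 7.73 and 7.62 with Ito cells and 6.82, 6.45 and 7.15 with CD146 cells, against 4.73, 7.38 and 7.58 in MCSF. The low control is the array with few B cell transcripts, in a group whose B cell mean reached 10.41, against at most 7.42 in any other group. That array also had the highest endothelial mean of its group (9.11, against 7.86 and 6.85) and the highest cholangiocyte mean (8.30, against 6.73 and 5.66). The part of RNA from B cells or other cells in these control values was not tested. In monocytic macrophages it was 8.04, 7.75 and 7.47 with HGF, 9.08, 8.94 and 8.42 with Ito cells and 8.74, 7.93 and 8.47 with CD146 cells, against 7.88, 8.0 and 7.87 in MCSF. Of these comparisons 0 of 6 passed, 1 at an unadjusted p under 0.05. With Ito cells the monocytic arrays all lie above the control (0.90 ± 0.45, adjusted p = 0.173), and the difference passed in 3 alternatives, among them the fit without the 3 arrays that stood apart (adjusted p = 0.0313). In Kupffer cells the difference with Ito cells was 0.99 (adjusted p = 0.106) and passed in 4 alternatives at 1.40 to 1.5, but it was 0.08 without the low control array (adjusted p = 0.925).

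The Kupffer minus monocytic difference of Notch1 at 1 day was -1.35 ± 0.45 in MCSF (adjusted p = 0.0274) and -1.58 ± 0.45 with CD146 cells (adjusted p = 0.0145). The first rests on the low control array: without it the difference was -0.44 (adjusted p = 0.518), and the call is also lost without any 1 of the monocytic control arrays (adjusted p of 0.0539 to 0.0787), in 8 of 16 alternatives in all. The second is lost without monocytic replicate 1 or 3 or Kupffer replicate 2 (adjusted p of 0.0524 to 0.0794). With Ito cells it was -1.26 (adjusted p = 0.165) and passed in 3 alternatives, among them the fit without the 3 arrays that stood apart (adjusted p = 0.0063). With HGF it was -0.97 (adjusted p = 0.0659) and passed in 2, median centring (-1.60, adjusted p = 0.00484) and the fit without Kupffer replicate 3 (-1.34, adjusted p = 0.0221). With time, relative to the median of all genes, Notch1 fell by 3.92 in monocytic macrophages with Ito cells, by 3.38 with HGF, and in Kupffer cells by 3.31 with Ito cells, by 2.37 with HGF and by 2.20 with CD146 cells. In the other 3 conditions the unshifted difference was 0.73 in Kupffer MCSF (adjusted p = 0.233), -1.08 in monocytic MCSF (adjusted p = 0.0681) and -0.98 in monocytic macrophages with CD146 cells (adjusted p = 0.107). The monocytic differences each passed in 5 of 16 alternatives, among them quantile normalization (adjusted p = 0.017 and 0.0464), median centring (adjusted p = 0.0168 and 0.0263) and the fit without the 3 arrays that stood apart (adjusted p = 0.00551 and 0.0123). The group means run from 8.81 in monocytic macrophages with Ito cells at 1 day to 4.72 in Kupffer cells with HGF at 3 days, and 13 of 15 steps are within the spread.

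Cell cycle genes were high at 3 days in the groups in which the 2 receptors were low. Their mean over 7 genes at 3 days was 13.20 to 13.62 in Kupffer cells with HGF, 12.83 to 12.98 with Ito cells and 13.37 to 13.51 with CD146 cells, against 7.49 to 7.66 in MCSF. In monocytic macrophages it was 11.38 to 12.02 with HGF, 11.99 to 12.38 with Ito cells and 7.22 to 7.72 with CD146 cells, against 7.42 to 12.59 in MCSF. Of the 7 genes, 5 to 7 stood above the 95th percentile of the negative controls in the 5 groups with high values, with a summed level of 17.02 to 18.29. In the Kupffer MCSF control 2 did (13.91 to 14.12), in the monocytic group with CD146 cells 1 to 2 (15.15 to 15.29) and in the monocytic MCSF control 2 to 7 (14.44 to 17.26). The 5 groups with high cell cycle genes on every array are the 5 in which Notch1 and Notch2 were lower than in MCSF, and the group with CD146 cells and low cell cycle genes is the one where neither passed. The single control array with high cell cycle genes had Notch2 of 11.70, below its group, and Notch1 of 7.10, the highest of its group. At 1 day, Kupffer cells with CD146 cells had means of 10.99 to 11.24 over the cell cycle genes, against 9.26 to 10.74 in MCSF, and neither receptor passed. Jag1 went both ways where these genes were high: it was lower than MCSF in 2 of the 5 groups and higher in 2. The groups with high cell cycle genes also differ from MCSF in the addition, and the Kupffer ones in markers of other cell types. These differences cannot be told apart here, and the part of the cell cycle genes in the receptor values was not tested.

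Markers of other cell types also moved with the additions at 3 days. In Kupffer cells the 9 macrophage genes averaged 13.27 to 13.88 over the 3 additions, against 15.99 to 16.26 in MCSF, with 7 to 8 of 9 against 9 of 9 above the 95th percentile of the negative controls and summed levels of 19.25 to 19.70 against 20.37 to 20.59. The 8 Kupffer cell genes averaged 7.29 to 8.17 with HGF, 5.79 to 6.02 with Ito cells and 5.51 to 5.67 with CD146 cells, against 8.35 to 8.48 in MCSF. Above the percentile were 2 to 4, 0 and 0 to 1 of 8, against 3 to 4, and summed levels were 9.63 to 13.90 against 15.64 to 16.33. The 4 monocyte genes averaged 11.24 to 12.33 over the additions, against 9.26 to 9.60, with 3 against 1 above the percentile and summed levels of 15.02 to 17.40 against 16.60 to 17.23. The genes did not all rise. In MCSF 1 gene carried the summed level, and the whole list summed to less with HGF (15.06 to 16.26) and CD146 cells (15.02 to 15.57). The bright gene of MCSF was thus lower in these groups, while with Ito cells the list summed to 16.62 to 17.40. Ccr2, the receptor by which monocytes leave the marrow, averaged 12.93 with HGF, 11.99 with Ito cells and 12.11 with CD146 cells, against 6.24 in MCSF. In monocytic macrophages the 8 Kupffer cell genes averaged 8.01 to 8.89 in MCSF. They averaged 7.24 to 7.85 with HGF, 7.18 to 7.61 with Ito cells and 6.98 to 7.07 with CD146 cells. The monocyte genes averaged 5.91 to 6.87 in MCSF there, against 7.24 to 7.95, 6.93 to 7.13 and 6.76 to 8.23 in that order. For the macrophage genes it was 15.30 to 15.60, against 14.78 to 14.97, 14.83 to 14.98 and 15.35 to 15.47.

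Lists for other liver cells had higher means in the same Kupffer groups. The 10 hepatocyte genes averaged 6.77 to 7.56 with HGF, 6.21 to 6.70 with Ito cells and 5.27 to 5.58 with CD146 cells, against 4.93 to 5.06 in MCSF, with 1 to 3 against 1 above the percentile and summed levels of 11.10 to 14.43 against 13.74 to 14.16. Alb, which encodes albumin, averaged 12.97, 12.77 and 8.63 in these 3 groups, against 4.58, while Tat and Cyp3a11 stayed below the mean of the negative controls. Another gene of the list went the other way. In MCSF 1 gene stood above the percentile, with a summed level of 13.74 to 14.16. The whole list summed to 11.10 to 11.38 with CD146 cells, and hence that gene was lower there. The list summed to 12.49 to 13.37 with Ito cells and to 12.93 to 14.43 with HGF. The 5 cholangiocyte genes averaged 6.63 to 9.73, against 3.69 to 3.88, with 1 to 3 against 0 above that percentile and summed levels of 9.84 to 14.89 against 6.09 to 6.31, led by Krt7. Endothelial genes averaged 5.05 to 6.50, against 4.06 to 4.18, with 0 to 3 against 0 of 15 above it and summed levels of 9.71 to 12.62 against 8.37 to 8.61. Of the 15, 5 to 8 stood above the mean of the negative controls with an addition, against 1 in MCSF. Cdh5, the cadherin of endothelial junctions, averaged 11.23 with HGF, 8.0 with Ito cells and 6.59 with CD146 cells, against 3.57, and Pecam1 and Kdr were also above that mean on every array with an addition and on none in MCSF. Stab2, Tek, Gpr182 and Clec4g were below it in all 4 groups.

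The 14 Ito cell and myofibroblast genes averaged 6.39 to 7.10 in Kupffer cells with HGF, 5.72 to 5.96 with Ito cells and 6.44 to 6.75 with CD146 cells, against 6.22 to 6.6 in MCSF, with 1 to 5 against 2 to 5 above the percentile and summed levels of 11.71 to 14.94 against 12.73 to 13.54. In monocytic macrophages they averaged 4.47 to 4.5 with HGF, 4.56 to 4.73 with Ito cells and 4.88 to 5.18 with CD146 cells, against 5.67 to 6.54 in MCSF. There 0 stood above the percentile with any addition, against 1 to 3 in MCSF, and summed levels were 8.84 to 9.67 against 11.39 to 12.80. Lrat, Reln and Colec11 were below the mean of the negative controls in all 8 groups. Every monocytic group with an addition is thus low in these genes. Of these groups, Notch1, Notch2 and Jag1 passed with HGF and with Ito cells and did not pass with CD146 cells. The part of all these genes or of the cells that carry them in the Notch results was not tested.

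**Figure D4:**
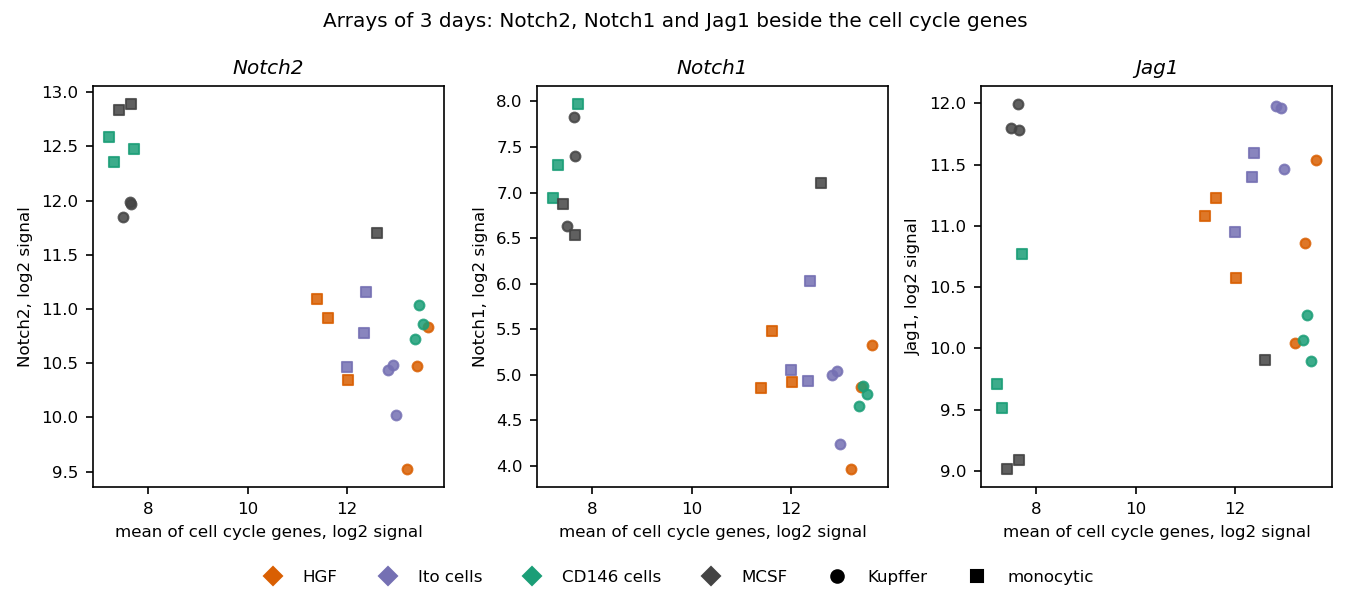
Each point is 1 of the 24 arrays of 3 days, with the mean of 7 cell cycle genes (log2, x axis) against Notch2, Notch1 or Jag1 (log2, y axis). Colour gives the condition and shape the cell type. Arrays with high cell cycle genes (over 11) have Notch2 of 9.52 to 11.70, and those with low ones (under 8) 11.85 to 12.89, while Jag1 shows both high and low values on each side.

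Ito cells were also set directly against CD146 cells. At 3 days Jag1 was 11.96, 11.46 and 11.98 in Kupffer cells with Ito cells, against 9.90, 10.27 and 10.07 with CD146 cells, a difference of 1.72 ± 0.37 (adjusted p = 0.00246). In monocytic macrophages with Ito cells Jag1 was 1.32 ± 0.37 higher than with CD146 cells (adjusted p = 0.0121), and this call is lost without CD146 replicate 1 or 2 or Ito replicate 2 (adjusted p of 0.0663 to 0.0985). Notch1 (-2.07 ± 0.45, adjusted p = 0.00118) and Notch2 (-1.68 ± 0.37, adjusted p = 0.00113) were lower with Ito cells in monocytic macrophages. In Kupffer cells they did not pass (Notch1 -0.01, adjusted p = 0.996, and Notch2 -0.56, adjusted p = 0.592). At 1 day none of the 3 genes passed, with 1 of 6 pairs at an unadjusted p under 0.05. Notch2 was -0.75 in Kupffer cells (adjusted p = 0.122) and -0.65 in monocytic macrophages (adjusted p = 0.21), and passed in 4 and 3 of 16 alternatives, among them the fit without the 3 arrays that stood apart (adjusted p = 0.0157 and 0.0439). Jag1 in monocytic macrophages (-0.53) and Notch1 in Kupffer cells (0.75) passed in 2 alternatives each. Over these comparisons 7 of 40 pairs of the 10 genes passed, 2 higher and 5 lower, and 15.4% of all genes (4.24% higher and 11.2% lower).

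Notch3 and Notch4, the other receptors, were below the mean of the negative controls on all 48 arrays, at 2.50 to 4.93 and 2.88 to 4.95. In Kupffer cells with Ito cells at 3 days Notch3 was 4.93, 4.30 and 4.28, against 3.95, 3.57 and 3.02 in MCSF at 3 days and 3.30, 3.06 and 3.01 with Ito cells at 1 day. Its arrays do not overlap those of either comparison, and the differences were 0.99 ± 0.25 from MCSF (adjusted p = 0.00221) and 0.87 from 1 day relative to the median of all genes (adjusted p = 2.44e-05 for the unshifted 1.38), between values that are all at background. The 7 dim genes (Notch3, Notch4, Jag2, Dll1, Dll4, Hes1 and Hey1) gave 38 calls in 224 pairs of group comparisons, and in 36 of these no group stood above the mean of its negative controls. They were 7 of 84 pairs against MCSF, 12 of 56 between cell types, 16 of 56 between times and 3 of 28 between Ito and CD146 cells. Among all genes with no group above the 95th percentile of the negative controls, 14.3%, 16.4%, 34% and 13.3% passed in these 4 families. The floor of the arrays moved with them. The 5th percentile of all genes was lowest, 2.16, in monocytic macrophages with HGF at 1 day, against 2.54 to 3.01 in the other groups, and all 7 dim genes had their lowest group mean there. That group takes part in 16 of the 38 calls, among them Notch4 (1.65 ± 0.20, adjusted p = 3.53e-08) and Hes1 (1.64 ± 0.23, adjusted p = 9.40e-07) in Kupffer minus monocytic cells with HGF at 1 day, where the median of all genes was 0.40 higher. Outside that group, Dll4 was 0.82 ± 0.25 (adjusted p = 0.0149) and Notch4 0.67 ± 0.20 (adjusted p = 0.0123) higher in Kupffer than in monocytic cells in MCSF at 1 day, and each call is lost in 6 of 16 alternatives (adjusted p up to 0.125 and 0.0972).

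**Figure D5:**
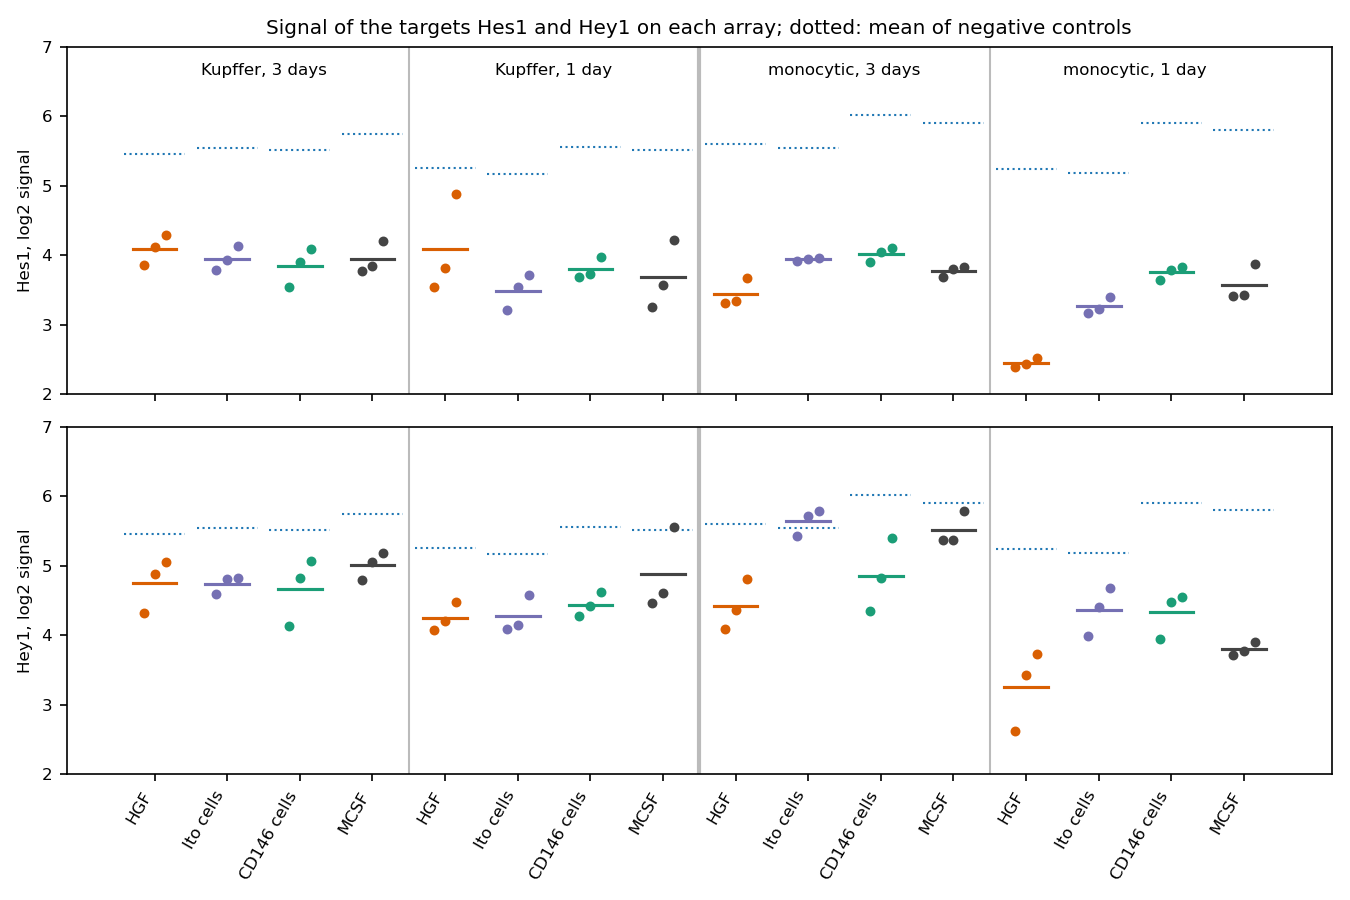
Log2 signal of the targets Hes1 and Hey1 on each of 48 arrays, with the group mean as a bar and the mean of the negative controls as a dotted line. Hes1 is below the dotted line throughout, and the group mean of Hey1 reaches it in monocytic macrophages with Ito cells at 3 days (5.65).

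Hes1, a repressor that is a classical Notch target, was 2.38 to 4.88 on the 48 arrays, below the mean of the negative controls on each. Its group means ran from 4.09 in Kupffer cells with HGF at 3 days to 2.45 in monocytic macrophages with HGF at 1 day. At 3 days 0 of 6 comparisons with MCSF passed (0 at an unadjusted p under 0.05), while 5 had Notch1 and Notch2 lower. The call at 1 day, -1.12 ± 0.23 in monocytic macrophages with HGF (adjusted p = 0.000401), stands in the group with the lowest floor, with a median shift of -0.55 over all genes.

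Hey1, a relative of Hes1 and a target of Notch in endothelium, came nearest to a measured signal among the dim genes. In the monocytic MCSF control it was 5.78, 5.37 and 5.37 at 3 days, against 3.78, 3.72 and 3.90 at 1 day. The groups do not overlap, and all 6 values lie below the mean of the negative controls of their group (5.90 and 5.81). The difference was 1.71 ± 0.29 (adjusted p = 9.46e-06), or 1.58 relative to the median of all genes. With Ito cells the monocytic arrays had 5.72, 5.43 and 5.79 at 3 days, against 3.99, 4.67 and 4.41 at 1 day (adjusted p = 0.000397), and these 3 arrays of 3 days are 3 of the 4 on which Hey1 exceeded the mean of its negative controls. Monocytic macrophages with HGF at 3 days had 4.09, 4.81 and 4.37, lower than MCSF by 1.08 ± 0.29 (adjusted p = 0.00757). In Kupffer cells Hey1 passed with time in 0 of 4 conditions (0 at an unadjusted p under 0.05), and its group means lay between 4.26 and 5.01. Between the cell types Hey1 was 1.08 higher in Kupffer cells in MCSF at 1 day (5.56, 4.61 and 4.47, against 3.78, 3.72 and 3.90 in monocytic macrophages, adjusted p = 0.00519). At 3 days with Ito cells it was 0.90 lower in Kupffer cells (4.60, 4.80 and 4.83, against 5.72, 5.43 and 5.79, adjusted p = 0.0372). The groups do not overlap in either comparison, but the call in MCSF is lost in 4 of 16 alternatives (adjusted p up to 0.0966, without Kupffer replicate 1) and the call with Ito cells in 7 (adjusted p up to 0.14), among them the removal of any 1 Kupffer array.

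The wider pathway was read from 49 other genes of Notch signalling, of which 47 were measured. Of these, 8 stood above the 95th percentile of the negative controls on all arrays, 10 on some and 29 on none. The 8 include Rbpj, the DNA-binding partner of the receptors, the gamma-secretase parts Ncstn, Aph1a and Psenen, and the proteases Adam10 and Adam17, which cut the receptor outside the membrane. Mib1, a ubiquitin ligase that lets ligands act, and Numb, an inhibitor of the receptors, complete them. Nrarp, a feedback target of Notch, was never above the mean of the negative controls. Of the other HES and HEY genes of the list, Hes5 was above that mean on 47 arrays, Hes7 on 46 and Hes2 on 23. Hes6 was above it on 3, and Hes3, Hey2 and Heyl on 0. None of them was above the 95th percentile on any array.

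In Kupffer cells at 3 days 2 of 47 were higher and 11 lower with HGF, 3 and 9 with Ito cells and 5 and 11 with CD146 cells. The list's median difference was -0.31, -0.07 and -0.17, beside 0.00, 0.11 and 0.01 over all genes, and 27.6%, 26.8% and 26.4% of all genes passed. In monocytic macrophages it was 2 and 4 with HGF, 1 and 6 with Ito cells and 1 and 0 with CD146 cells, with medians of -0.30, -0.06 and 0.12, beside -0.02, 0.04 and 0.06 over all genes. There 13%, 12.5% and 2.4% of all genes passed.

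Rbpj was higher with an addition at 3 days in 5 of 6 comparisons, all but Kupffer cells with HGF, while Notch1 and Notch2 were lower in all but monocytic macrophages with CD146 cells. In monocytic macrophages it averaged 14.46 ± 0.50 with HGF, 15.01 ± 0.28 with Ito cells and 14.77 ± 0.32 with CD146 cells, against 13.23 ± 0.60 in MCSF (SD, n = 3 each). The differences were 1.22, 1.78 and 1.54 (adjusted p = 0.00054, 1.89e-06 and 0.000101). In Kupffer cells Rbpj rose by 1.11 with Ito cells (adjusted p = 0.000541) and by 1.33 with CD146 cells (adjusted p = 4.05e-05), and differed by 0.33 with HGF (adjusted p = 0.394). The monocytic control had fallen with time, to 13.23 ± 0.60 at 3 days against 15.56 ± 0.06 at 1 day (-2.32, adjusted p = 9.90e-10), as Jag1 had in that control.

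The cutting enzymes changed in Kupffer cells at 3 days, in both directions. Adam17 fell by 1.89 with HGF (adjusted p = 9.01e-09), by 2.46 with Ito cells (adjusted p = 1.77e-11) and by 1.76 with CD146 cells (adjusted p = 4.32e-08). Adam10, the sheddase that cuts ligand-bound receptors, rose by 1.40 with Ito cells (adjusted p = 7.54e-06), and over the 6 comparisons of 3 days it was higher in 3 and lower in 1. The gamma-secretase part Ncstn fell by 1.68 with HGF (adjusted p = 1.96e-06) and by 1.52 with Ito cells (adjusted p = 1.39e-05). Its partner Aph1b fell by 1.55 with HGF (adjusted p = 2.68e-07) and by 1.81 with CD146 cells (adjusted p = 1.02e-08). Adam17 and Aph1b were lower in 5 of the 6 comparisons each, all but monocytic macrophages with CD146 cells. Among the fringe enzymes, which add sugars to the receptors and shift their choice of ligand, Lfng rose in Kupffer cells with CD146 cells, to 11.20 ± 0.24, against 9.89 ± 0.46 in MCSF (SD, n = 3 each, difference 1.31, adjusted p = 0.0022). Mfng (-0.95, adjusted p = 0.0479) and Rfng (-0.73, adjusted p = 0.0202) fell with HGF.

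At 1 day the list gave 0 higher and 13 lower in Kupffer cells with HGF, 1 and 9 with Ito cells and 0 and 4 with CD146 cells, while 17.5%, 23.5% and 3.78% of all genes passed. In monocytic macrophages it gave 0 and 9 with HGF (7 of them at background), 1 and 5 with Ito cells and 0 and 1 with CD146 cells, while 37.5%, 15.5% and 2.33% of all genes passed. Furin, which cuts the receptor precursor in the Golgi, was the gene of the list that rose: with Ito cells by 2.16 in Kupffer cells (adjusted p = 7e-07) and by 1.87 in monocytic macrophages (adjusted p = 3.28e-05). With time, relative to 38.3% of all genes that passed over the 8 comparisons, the list gave 7 to 12 higher and 2 to 6 lower in Kupffer cells and 16 to 18 higher and 2 to 4 lower in monocytic macrophages. Aph1c, another gamma-secretase part, was higher at 3 days in 7 of the 8 comparisons of time, and so in Kupffer cells too. In the 4 monocytic conditions it rose by 3.80 in MCSF (adjusted p = 9.87e-14), by 3.48 with HGF, by 2.83 with Ito cells and by 3.77 with CD146 cells.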

How the data were processed

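Biotinylated cRNA of macrophages had been hybridised to 48 Affymetrix arrays, per the labels' protocols. The authors deposited log2 values for 28846 probe sets, made with RMA in Transcriptome Analysis Console, per the submitters' processing notes, a tool whose version stays unstated. RMA subtracts background and usually normalizes between arrays, which can remove a shift shared by all genes. The deposited arrays still differed in distribution, with gene medians of 4.27 to 5.51. Nothing given here describes the sequences of the negative control probe sets. Of the probe sets, 19572 had 1 gene symbol in the platform annotation, giving 19505 genes (55 with several probe sets). A gene with several was represented by 1 of them, the brightest by average signal.

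The log2 values were fitted with limma 3.58.1 in R 4.3.3 as 16 group means with a shared spread (32 residual degrees of freedom), p-values were adjusted per contrast (38 in all) with the Benjamini-Hochberg method across all genes, and a gene passed at an adjusted p under 0.05. The fit was tested on simulated data. A group comparison was made between additions and MCSF, cell types, times, and the 2 kinds of added cells, and responses were compared between cell types. Separate cultures or animals behind the replicates are not described beyond the word biological.

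The 10 genes and all lists were chosen with earlier results of these data known. From the wider pathway list, the 3 genes with the smallest adjusted p in a contrast, the fringe genes, Rbpj and Nrarp are named. By their level, the genes above the 95th percentile on all arrays and the other HES and HEY genes are named too. Replicate numbers were checked for pairing: residuals of equally numbered arrays correlated by -0.0103 on average, against 0.0055 for others, and in 1 of 120 pairs of groups all 3 pairs were over 0.1, so the main fit had no block. Alternatives were quantile normalization, median centring, dropping the dimmest 25 percent of genes, a trended robust variance, array weights, a replicate block, fitting the compared arrays alone, a 2-fold minimum, a group above the 95th percentile of the negative controls, all probe sets and leaving out each array. The fit without 3 arrays and the GC-binned background were added after seeing the data.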

Additional observations from a re-analysis of the deposited data

Results flagged for a closer look

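In 8 cases the response of Kupffer cells differed from that of monocytic macrophages by a test of the difference itself (limma, adjusted p under 0.05 over all genes, 3 arrays per group). At 3 days Jag1 differed by -2.67 for HGF, by -2.03 for Ito cells and by -2.44 for CD146 cells, and Notch1 by -3.08 for CD146 cells. The same 3-day controls stand in all of these, and the monocytic one holds the array with high cell cycle genes; without the arrays that stood apart the Jag1 differences were -2.95, -2.32 and -2.72.

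For HGF at 1 day the difference was 1.11 for Notch3 (adjusted p = 0.0205), 0.98 for Notch4 (adjusted p = 0.0102), 1.07 for Dll1 (adjusted p = 0.0174) and 1.52 for Hes1 (adjusted p = 0.0011). All groups behind these 4 were below the mean of their negative controls, and the median of all genes differed by 0.36 in the same direction. The Notch3 and Notch4 calls are lost in 8 and 5 of 22 alternatives (adjusted p up to 0.459 and 0.318), that of Dll1 in 5 of 21 (up to 0.79) and that of Hes1 in 3 of 22 (up to 0.0935), quantile normalization among them for all 4.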

How the results depend on the processing

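The number of Notch genes above the 95th percentile of the negative controls on any array was 3, and 9 were above the mean of the GC-binned background on any array. These counts differ in the statistic, a percentile against a mean, as well as in the background. Calls in comparisons with MCSF (22) were 35 with array weights and 10 when a compared group had to be above that percentile. Between cell types (19) they were 10 with a 2-fold minimum, 4 with a group above the percentile, 10 from the compared arrays alone and 12 after quantile normalization. Between times (30) they were 18 with a 2-fold minimum and 10 with a group above the percentile. Between Ito and CD146 cells (7) they were 4 with a 2-fold minimum, 3 with a group above the percentile, 14 with array weights, 4 after median centring, 12 from the compared arrays alone and 11 without the 3 arrays that stood apart. Between responses (8) they were 3 with a group above the percentile, 5 after median centring, 4 from the compared arrays alone and 4 after quantile normalization. The demand for a group above the percentile leaves fewer genes by its construction, and the cause of the other moves was not tested. Leaving out each array gave 20 to 23, 16 to 19, 27 to 32, 6 to 8 and 6 to 9 calls in these 5 families, and the replicate block 22, 18, 29, 7 and 8.

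Signs turned only among genes at background. After median centring these were Dll1 (-0.31), Dll4 (-0.21) and Notch3 (-0.06619) between times in monocytic macrophages with HGF, Notch4 (-0.035) between times in Kupffer cells with Ito cells, and Notch4 (0.011) in monocytic macrophages with HGF against MCSF at 1 day. After quantile normalization they were Dll1 (-0.16) and Dll4 (-0.063) between times in monocytic macrophages with HGF, Dll1 (0.066) and Notch4 (0.11) there against MCSF at 1 day, and Dll1 (-0.007587) and Dll4 (-0.12) between cell types with HGF at 1 day. The cause was not tested. Signal over background limits the 7 dim genes and the low side of Notch1.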
